A study of Branchiostoma belcheri with 3 samples.

Results

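The microRNAs miR-183, miR-96 and miR-182 were read on microarrays of 3 organs of the amphioxus Branchiostoma belcheri, an invertebrate chordate. The members were all miRNA probes of any species whose name carries the number 183, 96 or 182, and they came to 29 of the 1686 miRNA probes on the array, 8 for miR-183, 7 for miR-96 and 14 for miR-182. Of these, 4 had B. belcheri sequences (prefix bbe), 6 had sequences of the related amphioxus B. floridae (bfl) and 19 had sequences of other animals. The last group comprised zebrafish (dre), the frog Xenopus tropicalis (xtr), the sea lamprey (pma), the sea squirts Ciona intestinalis (cin) and C. savignyi (csa), the acorn worm Saccoglossus kowalevskii (sko) and the purple sea urchin (spu). The 3 organs were the gill, the organ of filter feeding, the hepatic caecum, a blind sac that opens from the gut, and the intestine. Each was represented by 1 array hybridised with Cy3-stained small RNA below 300 nt, and per the labels that RNA came from the organ pooled over 5 adults. The labels say that the animals were wild-caught and fed on algae, and name no treatment. With 1 array per organ no test between organs was possible, array and organ cannot be told apart, and the errors below are SDs of the 2 spots of a probe on 1 array, which are technical.

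A microRNA is a short RNA that lowers the output of messenger RNAs, which it finds mainly through its seed, bases 2 to 8 from its 5′ end. In vertebrates miR-183, miR-96 and miR-182 are cut from neighbouring hairpins of 1 primary transcript and have similar seeds. They are known there from sensory cells, such as hair cells of the ear and photoreceptors of the eye, and changes in the seed of miR-96 cause hearing loss in humans and mice. The name sensory cluster comes from those animals. It could not be set against sensory cells here, since whole organs were used, and fewer cells of a type and less RNA per cell cannot be told apart.

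The sequences show which probes can bind the same RNA. The target sequences of the miR-183 probes of the 5p type, as the array files give them, are printed with the seed in capitals, first those read most brightly in gill.
bbe-miR-183-5p: uAUGGCACugguagaauucacuga
bfl-miR-183: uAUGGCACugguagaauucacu
dre-miR-183: uAUGGCACugguagaauucacug
spu-miR-183: uAUGGCACuauagaauucacug
csa-miR-183: uAUGGCACuaguagaaaucacug
sko-miR-183: aAUGGCACuguaugaauucacug
The amphioxus and zebrafish targets had 0 differences over the stretch they share and differed only in length. With positions counted from 1 at the 5′ end of bbe-miR-183-5p, csa-miR-183 carried G10A and U17A, and spu-miR-183 carried G11A beside 1 gap. The target of sko-miR-183 had 3 differences, gaps included. All 6 shared the seed AUGGCAC, which no other probe of the 1686 had.

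The miR-96 probes of the 5p type and the amphioxus miR-182 probes of that type shared another seed, UUGGCAC, and are shown together for that reason. No amphioxus probe of the miR-96 5p type was among the members, so only probes of other animals could read such an RNA. There was no amphioxus target of that type to compare with theirs. Whether they bound an amphioxus miR-96 was not tested.
dre-miR-96: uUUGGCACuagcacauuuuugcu
sko-miR-96-5p: uUUGGCACuagcacauuuugc
pma-miR-96a: uUUGGCACuggcacauacuugcu
cin-miR-96-5p: uUUGGCACuugcacaauauu
bbe-miR-182b-5p: cUUGGCACuuguggaauucucug
bfl-miR-182a: cUUGGCACuaguggaauucuuug
bfl-miR-182c: cUUGGCACuuguggaauuuuuug
xtr-miR-182-5p: uUUGGCAAugguagaacucaca
The targets of dre-miR-96 and sko-miR-96-5p differed by 1 gap. Counted on dre-miR-96, pma-miR-96a carried A10G, U17A and U18C, and cin-miR-96-5p carried A10U, U16A and U18A. The frog target xtr-miR-182-5p stands for the 5 miR-182 probes of other animals with the seed UUGGCAA, all of which differed from bbe-miR-182b-5p by C8A in the seed and by 6 to 8 differences in all. The 5 letters UGGCA at bases 3 to 7, common to these 3 seeds, occurred at that place in 20 of the 1686 targets (1.19%), and 18 of these 20 were members.

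The last set holds the amphioxus targets of the opposite arm, the 3p type by name or by seed, 4 for miR-182 with the seed AGAAUUC and 1 for miR-96 with the seed CAAAAUU. They are shown because 3 of the 6 amphioxus probes detected below were of this type.
bfl-miR-182b-3p: cAGAAUUCcccaguaccaaggaa
bbe-miR-182a-3p: aAGAAUUCcccaguaccaagca
bbe-miR-182d-3p: uAGAAUUCccccguaccgagugg
bfl-miR-182d: uAGAAUUCccccguaccgagug
bfl-miR-96-3p: cCAAAAUUguuagugccaaau
Counted on bbe-miR-182a-3p, bfl-miR-182b-3p carried A1C and C21G. The bbe-miR-182d-3p and bfl-miR-182d targets each carried A1U, A12C, A18G and 2 more substitutions. No amphioxus probe of the miR-183 3p type was among the members.

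Density is the median brightness of a spot in arbitrary units. Across the 304 spots without a probe it averaged 107 ± 10.6 on the gill array, 185 ± 144 on the hepatic caecum array and 115 ± 34.9 on the intestine array (SD of spots). A probe was called detected when its mean density lay more than 3 of these SDs above the blank mean, at over 139 in gill, 618 in hepatic caecum and 220 in intestine. The wide spread of the blank spots thus set the bar far higher for hepatic caecum. Hepatic caecum values are read with the grid of that array turned by 180 degrees, a choice made after the data had been seen. Its control spots then correlated with the mean of the other arrays at r = 0.977 on the log2 scale, against 0.261 under the names as deposited. With the rows mirrored instead, control spots gave a similar 0.970. The miRNA spots differed between these grids, at 0.870 turned and -0.01 mirrored, and they are also the values compared between organs below.

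Of the 29 members, 10 (34.5%) were detected in gill, 0 in hepatic caecum and 0 in intestine. Over all 1686 probes the shares detected were 27% in gill, 7.18% in hepatic caecum and 11.9% in intestine. Detection in gill and in neither other organ held for the same 10 members, against 15.2% of all probes. Split by origin, 6 of the 10 amphioxus members were detected in gill, against 61.9% of the 260 amphioxus probes. Of the 19 members from other animals 4 were detected there (21.1%), against 20.6% of the 1426 other probes. Within either class the members' share in gill was near the background. Detection in gill and in neither other organ held for the same 6 and 4, against 31.2% of the amphioxus probes and 12.3% of the other probes. In the gut organs the amphioxus members stood at 0 of 10, where 19.6% of amphioxus probes were detected in hepatic caecum and 31.5% in intestine. The median density of the members was 126 in gill, 166 in hepatic caecum and 97.9 in intestine, and that of all probes was 116 in gill, 165 in hepatic caecum and 102 in intestine.

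**Figure D1:**
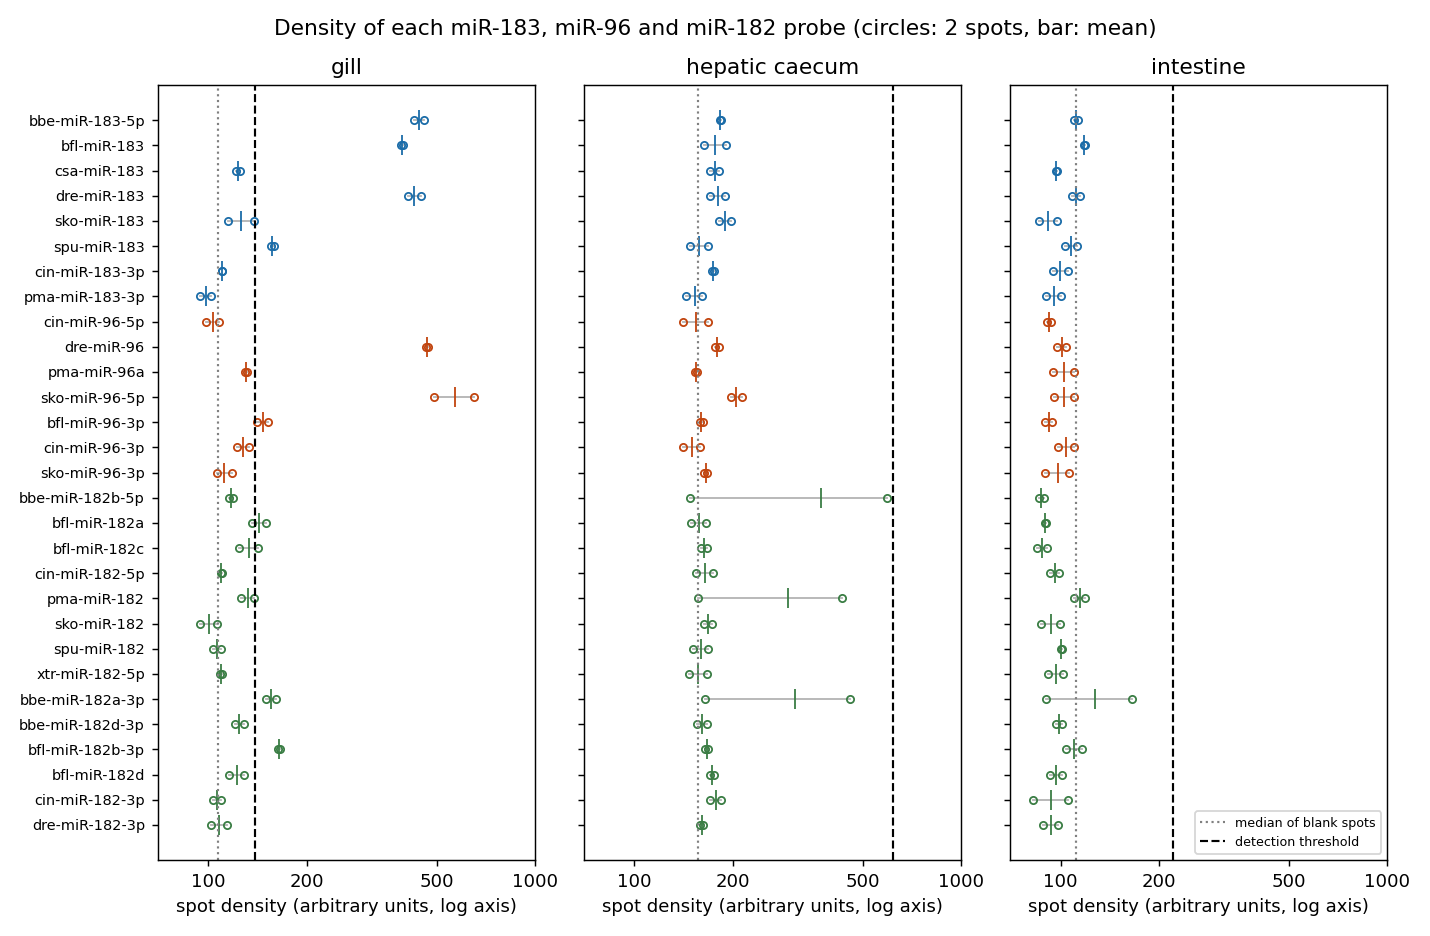
Density of the 29 member probes on a log axis in arbitrary units, in gill, hepatic caecum and intestine from left to right, with circles for the 2 spots and a bar for their mean. In gill 10 probes pass the dashed detection threshold, 5 of them at 392 to 570, and in the other organs 0 do. Dotted lines mark the median of the blank spots.

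Among the miR-183 probes the B. belcheri one, bbe-miR-183-5p, passed the detection threshold in gill alone. Its 2 spots read 427.2 and 458.5 in gill, 183.4 and 182.4 in hepatic caecum, and 110.1 and 112.8 in intestine. The gill mean of 443 ± 22.1 lay above all 304 blank spots of that array. The means were 183 ± 0.7 in hepatic caecum, above 90.5% of its blank spots, and 111 ± 1.9 in intestine, above 49.0% of its blank spots. The median over all probes lay above 70.4% of the blank spots in hepatic caecum and 17.8% in intestine. By density bbe-miR-183-5p ranked 238 of the 1686 miRNA probes in gill, 394 in hepatic caecum and 473 in intestine. Beside it stood 2 further probes of the same target. The bfl-miR-183 probe had 392 ± 4.0 in gill, 177 ± 19.7 in hepatic caecum and 118 ± 0.7 in intestine. Its intestine mean lay above 77.3% of the blank spots, and it ranked 247 in gill, 450 in hepatic caecum and 393 in intestine. The dre-miR-183 probe had 428 ± 27.1 in gill, 180 ± 12.7 in hepatic caecum and 112 ± 4.6 in intestine. The 3 probes can bind the same RNA and are 1 measurement of it in each organ, read 3 times, not 3 samples. Their gill means spanned 392 to 443, and in gill no spot of the 3 fell below 388.8.

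The remaining miR-183 probes of the 5p type differed from the amphioxus target at 2 or 3 places and read lower in gill. The sea urchin probe spu-miR-183 passed the gill threshold at 157 ± 2.2, against 158 ± 14.5 in hepatic caecum and 108 ± 6.6 in intestine. The probes csa-miR-183, at 124 ± 2.2 in gill, and sko-miR-183, at 126 ± 16.2, did not pass it. The 3p probes cin-miR-183-3p and pma-miR-183-3p read 110 ± 0.2 and 98.4 ± 5.4 in gill, around the blank mean. In all, 4 of the 8 miR-183 probes (50%) were detected in gill, against 27% of all probes. Probes of different sequence bind with different strength, so the density of one is not an amount relative to another.

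For miR-96, the member whose seed is tied to hearing in mammals, the brightest readings came from the acorn worm and zebrafish probes. The sko-miR-96-5p spots read 649.6 and 491.2 in gill, 212.7 and 197.4 in hepatic caecum, and 110.0 and 95.2 in intestine. Those of dre-miR-96 read 471.5 and 463.7 in gill, 176.6 and 181.5 in hepatic caecum, and 97.6 and 103.6 in intestine. Each probe's gill spots lay above all its spots in the other organs. Their means were 570 ± 112 and 468 ± 5.5 in gill, above all blank spots. In intestine they were 103 ± 10.5 and 101 ± 4.3, above 18.4% and 14.8% of the blank spots.

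The other miR-96 probes were dim. The pma-miR-96a probe, with 3 substitutions, had 131 ± 1.5 in gill, and cin-miR-96-5p, with 3 as well, had 103 ± 6.9. The amphioxus 3p probe bfl-miR-96-3p passed the gill threshold narrowly at 147 ± 8.6, with 160 ± 2.0 in hepatic caecum and 91.9 ± 3.4 in intestine. It was 1 of 3 probes detected among the 7 of this number (42.9%, beside the same 27%). The remaining 3p probes, cin-miR-96-3p and sko-miR-96-3p, had 128 ± 7.2 and 112 ± 8.6 in gill and were not detected.

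**Figure D2:**
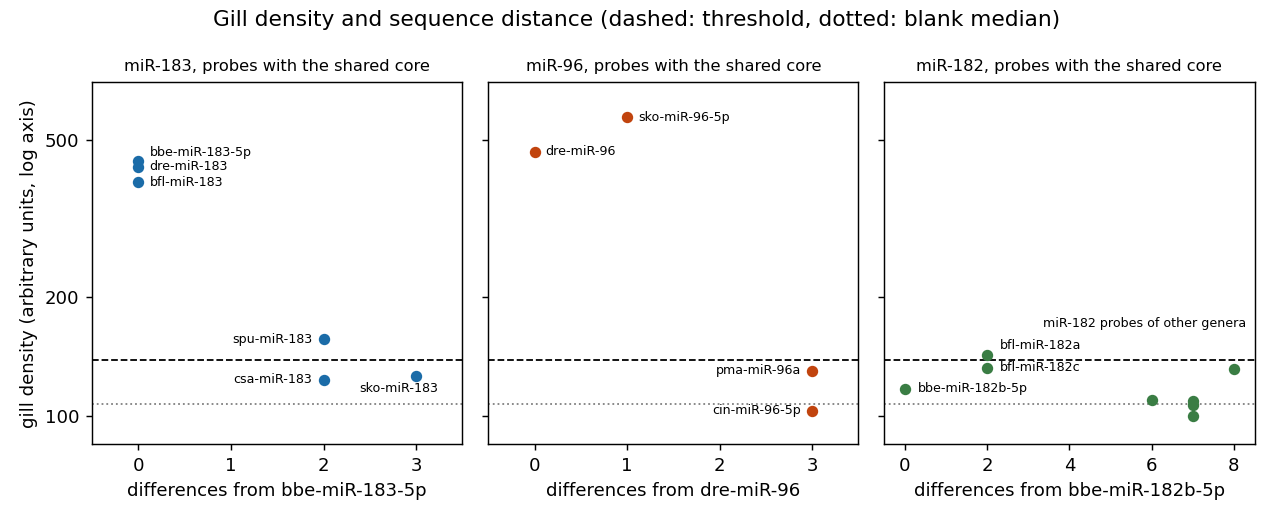
Gill density on a log axis in arbitrary units against the number of substitutions and gaps that separate each target from bbe-miR-183-5p, dre-miR-96 or bbe-miR-182b-5p, for the 18 members with the shared core letters. The 5 bright probes are those with 0 or 1 difference from bbe-miR-183-5p or dre-miR-96, while the miR-182 probes sit between 100 and 143. Dashed and dotted lines mark the gill threshold and the median of the gill blank spots.

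The miR-182 probes gave readings near background in every organ, apart from single spots in hepatic caecum and 1 in intestine. Of the 14, 3 (21.4%) passed in gill, against 27% of all probes, at means of 143 to 165 beside the threshold of 139. All 3 were amphioxus probes, a class of which 61.9% were detected in gill over the whole array. No miR-182 probe of another animal passed, where 20.6% of the probes of other animals did. The bfl-miR-182b-3p spots read 163.6 and 165.8 in gill, 167.7 and 164.7 in hepatic caecum, and 103.6 and 116.0 in intestine. The bbe-miR-182a-3p spots read 150.1 and 160.8 in gill, 164.9 and 456.1 in hepatic caecum, and 165.2 and 90.3 in intestine. The spots of bbe-miR-182a-3p disagreed in both gut organs, and the bfl-miR-182b-3p target, which differs from it at 2 places, showed no such high spot. The third, bfl-miR-182a, had 143 ± 10.0 in gill, 157 ± 11.5 in hepatic caecum and 89.6 ± 0.5 in intestine, and 1 of its gill spots, at 135.7, was below the threshold.

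The B. belcheri 5p probe bbe-miR-182b-5p was not detected in any organ. Its spots read 119.4 and 115.6 in gill, 148.4 and 594.9 in hepatic caecum, and 85.8 and 88.7 in intestine. The 2 hepatic caecum spots disagreed, and both were under the threshold of 618. Its closest targets, bfl-miR-182a with U10A and C21U and bfl-miR-182c with C19U and C21U, had 157 ± 11.5 and 163 ± 5.2 in hepatic caecum. The remaining amphioxus probes were undetected as well. In gill they stood at 133 ± 12.3 for bfl-miR-182c, 125 ± 5.9 for bbe-miR-182d-3p and 122 ± 9.2 for bfl-miR-182d. Just outside the gill threshold were also pma-miR-182 at 132 ± 9.0 and pma-miR-96a at 131. None of the 5 miR-182 probes with the seed UUGGCAA was detected. Aside from pma-miR-182, the 6 miR-182 probes of other animals, 3p probes included, read 100 to 110 in gill, close to the blank mean of 107.

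Grouped by seed, 4 of 6 probes with AUGGCAC, 3 of 7 with UUGGCAC, 0 of 5 with UUGGCAA and 2 of 4 with AGAAUUC were detected in gill. The 3 probes with UUGGCAC were dre-miR-96, sko-miR-96-5p and bfl-miR-182a. Among the 18 members with the core UGGCA 7 (38.9%) were detected in gill, and among the 11 without it 3 (27.3%) were, both beside 27% of all probes. A shared seed does not make whole targets alike, and those of bbe-miR-182b-5p and dre-miR-96 differed by 8 differences, gaps included. Probes with nearly the same target can bind the same RNA, so these counts are not all of separate miRNAs. The core letters were also in 2 probes outside the members, which share the seed UUGGCAC.
bfl-miR-4871-3p: uUUGGCACugguacuuuggagu
cin-miR-4099-5p: uUUGGCACcaugacgaucaa
The amphioxus probe bfl-miR-4871-3p had 6246 ± 928 in gill, 936 ± 123 in hepatic caecum and 312 ± 104 in intestine, and was detected in all 3. Its target differed from dre-miR-96 and from bbe-miR-183-5p by 7 differences each, gaps included. Whether its RNA also bound member probes was not tested. The cin-miR-4099-5p probe was detected in none, with 112 ± 6.0 in gill.

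The place of a probe among the blank spots of its own array needs no normalization between arrays. The mean density of the 29 members lay above 19.1% to 100% of the gill blank spots, with a median of 98.7%, beside a median of 82.2% for all 1686 probes. In hepatic caecum the members lay above 33.9% to 95.4% of the blank spots, with a median of 72.4% beside 70.4% for all probes. In intestine they lay above 2.3% to 92.8%, with a median of 9.9% beside 17.8% for all probes. Members above the middle of the blank spots numbered 24 in gill (82.8%, against 78.3% of all probes), 25 in hepatic caecum (86.2%, against 83.3%) and 3 in intestine (10.3%, against 27.6%). The 10 members detected in gill are high among the gill blank spots by the detection rule itself. The highest hepatic caecum places, those of bbe-miR-182b-5p, bbe-miR-182a-3p and pma-miR-182, each come from 1 of the 2 spots of the probe. So does the high intestine place of bbe-miR-182a-3p.

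**Figure D3:**
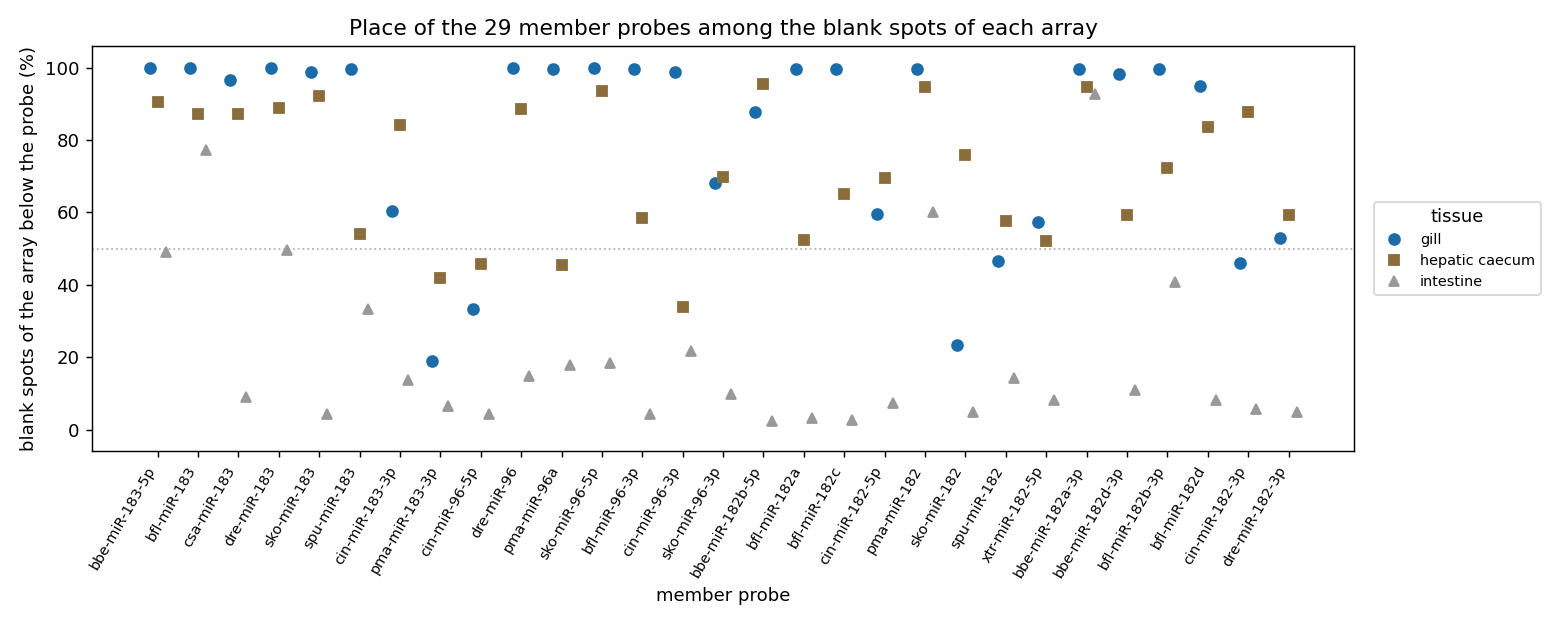
Share of the 304 blank spots of each array, in percent, that lie below the mean density of each of the 29 members, for gill (circles), hepatic caecum (squares) and intestine (triangles). The members' medians are 98.7% in gill, 72.4% in hepatic caecum and 9.9% in intestine, and those of all probes are 82.2% in gill, 70.4% in hepatic caecum and 17.8% in intestine. A dotted line marks the middle of the blank spots.

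How far the absence of calls in the gut organs could be read depended on the thresholds. At an equal density, before scaling between arrays, 5 of the 10 members detected in gill would have passed the intestine threshold, namely bbe-miR-183-5p, bfl-miR-183, dre-miR-183, dre-miR-96 and sko-miR-96-5p. None of the 10 would have passed that of hepatic caecum. Among all 455 probes detected in gill, 309 exceeded the intestine threshold there, and 124 of these were not detected in intestine. With a threshold of the blank median plus 3 scaled median absolute deviations, at 136 in gill, 201 in hepatic caecum and 139 in intestine, 10 members passed in gill (28.2% of all probes did), 4 in hepatic caecum (19%) and 0 in intestine (19%). The 4 were sko-miR-96-5p, bbe-miR-182a-3p, bbe-miR-182b-5p and pma-miR-182. The spots of sko-miR-96-5p lay on either side of that threshold. The other 3 each rested on 1 high spot, and that of pma-miR-182 read 432.9 beside 157.0.

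The difference between organs was then asked on the normalized log2 scale. After background correction and quantile normalization bbe-miR-183-5p had a log2 level of 7.80 in gill, 6.73 in hepatic caecum and 6.56 in intestine. The levels of dre-miR-96 were 7.84 in gill, 6.65 in hepatic caecum and 6.32 in intestine, and those of sko-miR-96-5p were 7.99 in gill, 7.10 in hepatic caecum and 6.36 in intestine. Since no member was detected in the gut organs, only a lower bound could be given for gill over each, against the lowest level at which any probe was detected there, 9.54 in hepatic caecum and 8.12 in intestine. Both exceed the gill levels of all 10 members, so no bound reached 1-fold and none is given. Accordingly 0 members counted as at least 2-fold higher in gill than in hepatic caecum (2.37% of all probes) and 0 as higher than in intestine (3.91%). Between hepatic caecum and intestine no member was detected on either side, and no fold is given.

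The bounds against intestine moved with the scaling between arrays. Without it, sko-miR-96-5p was at least 2.95-fold higher in gill than in intestine, dre-miR-96 at least 2.41-fold, bbe-miR-183-5p at least 2.27-fold and dre-miR-183 at least 2.19-fold. The bound of bfl-miR-183 was 1.99-fold, just short of the 2-fold limit. These 4 members compare with 11.6% of all probes on that scale. Against hepatic caecum 0 members reached 2-fold on it (9.96% of all probes), and the largest bound was 1.19-fold, for sko-miR-96-5p. Over intestine the same 5 members also had bounds above 1-fold with cyclic loess, the largest at 1.44-fold. So they did after centring on 5S rRNA (largest 1.72-fold), spike-in probes (1.65-fold) or the 75th percentile (2.40-fold). None did after centring on probes detected on all 3 arrays. The share of all probes above 1-fold was not computed. The probes detected on both arrays of a pair had a median log2 difference, gill minus intestine, of -0.29 after quantile normalization and 1.77 without it. For gill minus hepatic caecum those medians were -0.70 and 1.75. The sign of both medians thus turned with the scaling.

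**Figure D4:**
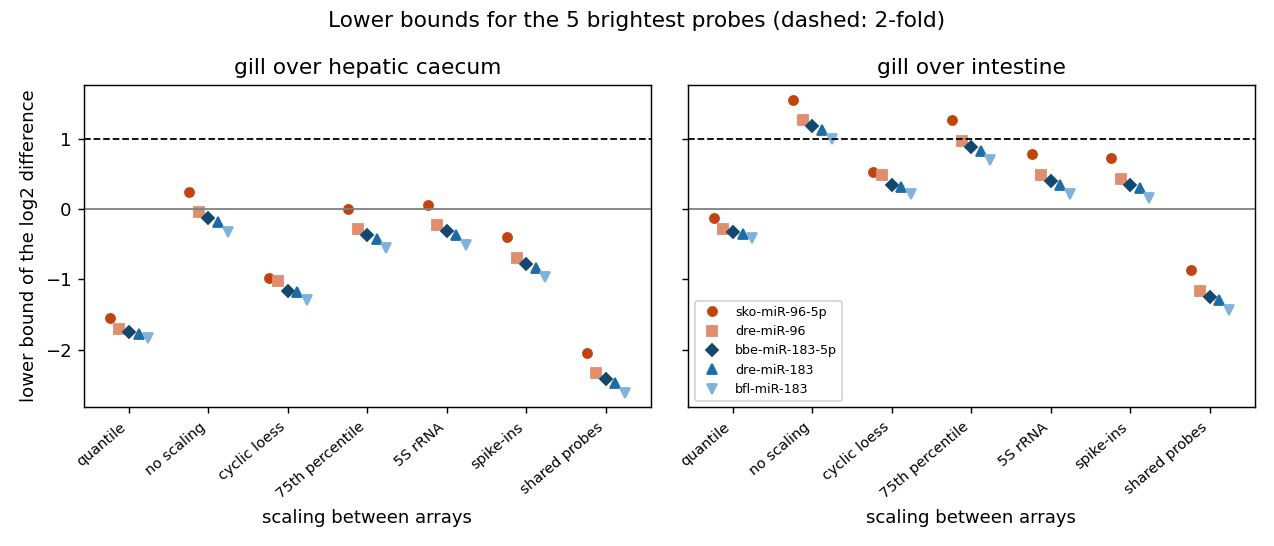
Lower bound of the log2 difference, gill over hepatic caecum (left) and gill over intestine (right), for the 5 brightest members under 7 scalings between arrays. A bound under 0, the solid line, carries no fold. Over intestine the bounds pass the dashed 2-fold line for 4 of the 5 probes without scaling and for sko-miR-96-5p after centring on the 75th percentile, and over hepatic caecum for 0 probes.

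Among the 5 members brightest in gill, the gap between sko-miR-96-5p and dre-miR-96 and that between bbe-miR-183-5p and dre-miR-183 were smaller than the larger spot SD of the pair. The order of the 5 is one of densities, not of amounts.

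Of 173 miRNA numbers with a probe detected in gill, those most like the members over the 3 organs were found by the Euclidean distance of mean log2 levels, over 3 arrays. Only probes detected in gill entered the means, so the measure is a description of gill-detected probes, and the members' levels in hepatic caecum and intestine behind it are those of readings below the detection thresholds. The hepatic caecum level of miR-182 includes the single high spot of bbe-miR-182a-3p. Only numbers outside the members were named as nearest, so distances between the members are not given. For miR-183 the nearest were miR-193 at a distance of 0.23, miR-4618 at 0.26 and miR-4036 at 0.34. For miR-96 they were miR-193 at 0.23, miR-4547 at 0.29 and miR-4019 at 0.36, and for miR-182 miR-24 at 0.15, miR-208 at 0.21 and miR-5596 at 0.27. Of these nearest numbers miR-193 rested on 5 probes and miR-5596 on 2. Each of the others rested on 1 probe, so it does not stand for a whole family.

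Other miRNAs known from neurons and sense organs were read from a list that, beside the members, held 30 probes. Of these, 12 were detected in gill, 1 in hepatic caecum and 4 in intestine, and the counts here stand beside 27% of all probes in gill, 7.18% in hepatic caecum and 11.9% in intestine. The neuronal miR-124 had 2 of 10 probes detected in gill and 0 elsewhere. The neural miR-9 had 6 of 12 in gill, 1 in hepatic caecum and 1 in intestine, and miR-7, known from neurosecretory cells, had 4 of 8 in gill, 0 in hepatic caecum and 3 in intestine. No probe of miR-263, the invertebrate relative of the cluster, was among those analysed here. Of 27 probes of the ciliated-cell miRNAs miR-34 and miR-449, 14 were detected in gill, 4 in hepatic caecum and 4 in intestine. The epithelial miR-200, miR-141 and miR-429 had 17 of 23 in gill, 11 in hepatic caecum and 12 in intestine. The muscle miR-1, miR-206 and miR-133 had 15 of 35 in gill, 0 in hepatic caecum and 4 in intestine. None of 11 probes of miR-122, miR-192, miR-194 and miR-215, known from vertebrate liver and gut, was detected in any organ. The part of these cell types in the members' readings was not tested, and the labelled organs could not be checked against messenger RNA markers.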

How the data were processed

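Small RNA of gill, hepatic caecum and intestine was hybridised to 1 single-colour array each. The scanner files give for every spot, per the file headers, its median density as deposited, an intensity on a linear scale without background subtraction, for 3968 spots. The deposited series table holds intensity values processed by the authors, whose background correction and scaling are not given in the sources used here, and it serves as an alternative. The members and the lists were chosen with earlier results of these data known.

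Densities were corrected with normexp (offset 50), converted to log2, averaged over the 2 spots and quantile-normalized (limma 3.58.1, R 4.3.3). Other steps and figures used Python 3.11.15, numpy 2.4.6, pandas 2.3.3 and matplotlib 3.10.9. Steps were tested on simulated data, in which the blank spots of all arrays had the same narrow spread. The wide spread of the hepatic caecum blank spots was not simulated. The grid of the hepatic caecum array was turned by 180 degrees after 4 orientations were compared on control spots. With its rows mirrored r was 0.970 for control spots and -0.01 for miRNA spots, against 0.870 for miRNA spots in the turned grid. Named with values were all members detected in any organ and all amphioxus members, and for likeness the 3 nearest numbers outside the members. Substitutions and gaps came from pairwise alignment with free ends. Repeat spots correlated at r = 0.995 in gill, 0.936 in hepatic caecum and 0.975 in intestine across probes (log2). The number of arrays limits the precision. Other thresholds, spots, scalings and sources of values were tried as alternatives.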

Additional observations from a re-analysis of the deposited data

How the results depend on the processing

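No paired analysis was possible because each organ has 1 array and no replicate numbers. The number of members detected in gill was 10 under the rule used, 6 at 5 SDs above the blank mean, and between 9 and 13 under the other thresholds and from single spots. In intestine it was 0 under each alternative, and in hepatic caecum 0 under each except the threshold from the blank median, which gave 4. Under the deposited names of the hepatic caecum array the threshold was 22217, above bbe-miR-182b-5p at 17621 there. The 0 under those names therefore cannot show absence. The number of members at least 2-fold higher in gill than in intestine was 0. It became 4 without normalization between arrays, 1 after centring on the 75th percentile, 1 with the threshold from the blank median, and 9 of the 10 members detected in gill in the authors' deposited table (after adding 1 to its values), and stayed at 0 under the other alternatives. Whatever their detection, 17 of all 29 members (58.6%) were at least 2-fold higher in gill than in intestine in the authors' deposited table and 4 at least 2-fold lower, against 31.9% and 28.5% of all probes. The number at least 2-fold higher in gill than in hepatic caecum was 0 under each alternative run. The threshold under the deposited names was again 22217. The deposited table was not run for hepatic caecum, since its column follows the deposited names. In the order of the 10 members in gill, 6 kept their place with the first spot, 8 with the second and 3 in the authors' deposited table, and the 5 brightest were the same 5 in each. The 5 near the threshold are limited by the background: bfl-miR-182b-3p alone of these was detected at 5 SDs. In hepatic caecum the spread of the blank spots limits what any density under 618 can show.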

Other observations

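Under the names deposited with the hepatic caecum array, bbe-miR-182b-5p would be one of its brightest probes. Its 2 spots then read 19031.7 and 16209.6, a mean of 17621 ± 1996, and the authors' deposited table lists this probe at 42224.65 in hepatic caecum, rank 14 of its miRNA probes, beside 5.28 in gill and 0.01 in intestine. With the grid turned, the same spots belong to bbe-miR-4857-5p, which had 8211 in gill, 17621 in hepatic caecum and 13902 in intestine. The spots named bbe-miR-182d-3p in the deposited order, at 5787 ± 327, belong in the turned grid to bbe-miR-4869-5p, which had 2731 in gill, 5787 in hepatic caecum and 6159 in intestine. In the turned grid bbe-miR-182b-5p had 372 ± 316 and bbe-miR-182d-3p had 161 ± 8.1 in hepatic caecum. A statement that miR-182 is abundant in the hepatic caecum thus turns on the placement of that grid.

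In the authors' deposited table, whose scale is unstated, the 5 members chosen for their brightness in gill have the values that follow. It lists sko-miR-96-5p at 206.94 in gill and 11.79 in intestine, dre-miR-183 at 190.89 and 16.55, and dre-miR-96 at 167.90 and 8.41. It lists bbe-miR-183-5p at 151.55 in gill and 25.17 in intestine, and bfl-miR-183 at 147.40 and 35.34. It also lists bbe-miR-182a-3p at 21.11 in gill and 38.26 in intestine, and pma-miR-182 at 14.02 in gill and 23.54 in intestine. The medians of that table over the miRNA probes were 6.88 in gill and 5.33 in intestine.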
